A study of Homo sapiens with 22 samples.

Results

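The genes described here are 6 members of the plasminogen activation system and of the serpin family, PLAT, PLAU, PLAUR, SERPINE2, SERPINB2 and SERPINF1, out of 33538 genes in the untreated WM989 matrix and 36601 in each of the other matrices. They were chosen by gene symbol, and each symbol matched 1 row of every matrix. PLAT and PLAU encode the tissue-type and urokinase-type activators, serine proteases that cut plasminogen into plasmin, the protease that dissolves fibrin and degrades matrix proteins. PLAUR encodes the cell-surface receptor that holds urokinase at the membrane. SERPINE2 (protease nexin-1) inhibits thrombin and both activators, SERPINB2 (PAI-2) inhibits urokinase, and SERPINF1 (PEDF) is a secreted serpin without known protease inhibition that is known for its anti-angiogenic activity. In melanoma the activators, the receptor and their inhibitors have been studied for their part in invasion.

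The data come from WM989 and WM983B (labelled WM983), BRAF-mutant human melanoma cell lines, and each was assayed by droplet single-cell RNA sequencing with unique molecular identifiers (UMIs). The untreated WM989 cells carried lineage barcodes and had been sorted as EGFR/NGFR-high or as mixed cells before expansion, and they fill 8 libraries, 4 of replicate r1 and 4 of replicate r2. The labels do not say which library held which sort, and the study's methods load 1 culture on a pair of chip wells, so the 8 libraries are not 8 independent cultures. The WM983B cells were untreated and fill 1 library. In the treatment experiment, barcoded WM989 cells were sorted into a well, expanded and split over plates. The plates stayed untreated (Control) or received recombinant TGFB1, the TGF-β receptor inhibitor LY2109761 (TGFBRi) or the PI3K inhibitor GDC-0941 (PI3Ki). By the methods, the replicates, labelled r1 and r2, went through these steps in parallel, each from its own well. GEO's labels name the pair of libraries of each treatment Mix and Primed, and which of these is r1 was not settled, so the spread within a pair may also hold a difference in starting cells. For chromatin accessibility, WM989 cells labelled Mix, EGFR_High, NGFR-High and EGFR-NGFR-High were assayed by ATAC-seq in 3 libraries each, where the methods describe a sort negative for both markers in the place of Mix. The authors assigned every cell to a drug-susceptible or a primed state, the latter being cells regarded as more prone to resist targeted therapy, and these assignments are used throughout.

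The untreated WM989 matrix held 12531 cells, 2843 of them primed, with median depths of 58253 UMIs in primed and 52835 in drug-susceptible cells. The WM983B matrix held 1449 cells, 731 of them primed, and the treatment experiment held 40021 cells, 4077 of them primed, in libraries of 70239657 to 122420544 UMIs. In the treatment experiment the median depth was 11211 UMIs in primed and 16825 in drug-susceptible cells. The median share of mitochondrial UMIs was also lower in primed cells, at 7.95% against 14.1% in untreated WM989 and 7.79% against 10.8% in the treatment experiment, and stood at 7.95% against 7.99% in WM983B. Cell barcodes shared between libraries numbered 19 in untreated WM989 and 194 in the treatment experiment. In untreated WM989 the primed markers EGFR, AXL, NGFR, NT5E and FN1 were all higher in primed cells, and SOX10, MITF, PMEL, MLANA and TYR were all lower. The primed to drug-susceptible ratios of the primed markers ran from 8.01 (NT5E) to 90.1 (AXL) in WM989 and from 1.42 (EGFR, at 3.13 and 2.21 CPM) to 4.56 (NGFR) in WM983B. Those of the melanocytic markers ran from 0.0310 (PMEL) to 0.146 (MITF) in WM989 and from 0.0401 (MLANA) to 0.921 (SOX10) in WM983B. Leukocyte markers summed to 0.520 CPM (the count of a gene relative to the UMIs of the same cells, scaled as counts per 1e6) in primed and 1.05 in drug-susceptible WM989 cells, and epithelial markers to 0.0208 and 0.0215. Of the endothelial markers CDH5 had 1 count in primed and 2 in drug-susceptible cells, while PECAM1 stood at 22.8 against 0.183 CPM and VWF at 2.47 against 0.312. Of the fibroblast markers PDGFRA (47.3 against 0.734 CPM) and DCN (6.19 against 1.33) were higher and LUM (16.9 against 32.2) was lower in primed cells. In WM983B the leukocyte marker LYZ stood at 21.6 CPM in primed and 11.7 in drug-susceptible cells, and LUM at 83.3 against 99.9. Every other of these markers of further cell types stood at 1.74 CPM (DCN in drug-susceptible cells) or less in that line. Whether depth, the mitochondrial share, the cell cycle or these markers have a part in any difference below was not tested. Values below are CPM over the summed counts of a group of cells, with exact Poisson 95% intervals, which cover counting error only.

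Regulatory sequences are shown for PLAUR, SERPINB2 and SERPINE2, whose RNA was higher in primed cells, and for a region upstream of PLAU whose accessibility differed between sorts. PLAUR lies at chr19:43646095-43670547 on the minus strand (hg38), SERPINB2 at chr18:63871692-63903888 on the plus strand, SERPINE2 at chr2:223975045-224039318 on the minus strand and PLAU at chr10:73909177-73917496 on the plus strand. The PLAUR, SERPINB2 and SERPINE2 sequences are the 250 bases before a RefSeq start (GRCh38.p14), at chr19:43670170-43670419, chr18:63887455-63887704 and chr2:224038641-224038890, and the PLAU sequence is 300 bases, chr10:73906786-73907085 on the plus strand (hg38), at the centre of an accessible region upstream of the gene. All are written 5′ to 3′ on the strand of the gene. Capitals mark matches on either strand to the AP-1 motif TGANTCA, the TEAD motif GGAATG, the E-box CACGTG, the M-box TCATGTG and the SMAD motif CAGACA.
PLAUR promoter: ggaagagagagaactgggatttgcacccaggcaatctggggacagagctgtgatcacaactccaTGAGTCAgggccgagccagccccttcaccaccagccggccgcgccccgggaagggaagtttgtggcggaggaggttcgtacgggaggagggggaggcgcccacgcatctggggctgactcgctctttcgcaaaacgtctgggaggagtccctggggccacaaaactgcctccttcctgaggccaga
SERPINB2 promoter: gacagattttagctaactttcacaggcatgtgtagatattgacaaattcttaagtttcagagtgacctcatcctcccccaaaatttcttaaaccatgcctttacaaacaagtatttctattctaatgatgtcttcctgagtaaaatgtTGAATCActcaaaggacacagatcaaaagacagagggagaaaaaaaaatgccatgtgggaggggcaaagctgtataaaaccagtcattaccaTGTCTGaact
SERPINE2 promoter: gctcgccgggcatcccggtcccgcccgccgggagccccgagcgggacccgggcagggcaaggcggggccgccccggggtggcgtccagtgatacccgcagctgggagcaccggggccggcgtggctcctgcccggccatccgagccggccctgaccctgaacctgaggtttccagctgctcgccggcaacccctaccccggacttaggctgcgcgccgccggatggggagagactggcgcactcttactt
PLAU upstream region: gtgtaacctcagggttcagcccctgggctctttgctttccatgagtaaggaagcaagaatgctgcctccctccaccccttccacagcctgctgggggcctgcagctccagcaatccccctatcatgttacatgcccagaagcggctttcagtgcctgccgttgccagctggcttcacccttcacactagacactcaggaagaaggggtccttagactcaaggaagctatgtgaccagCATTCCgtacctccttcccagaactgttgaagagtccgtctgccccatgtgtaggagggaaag
The PLAUR promoter held 1 AP-1 match (TGAGTCA), the SERPINB2 promoter 1 AP-1 match (TGAATCA) and 1 SMAD match (TGTCTG, the motif on the other strand), and the PLAU region 1 TEAD match (CATTCC, again the other strand). No motif searched was found in the SERPINE2 window, whose GC content was 75.2%, against 63.2% in the PLAUR and 37.2% in the SERPINB2 window. The first RefSeq start of SERPINE2, chr2:224039286, lies upstream of the printed window, which is thus inside the gene. The 250 bases before that first start were not searched as a window. Another RefSeq start of SERPINE2, further downstream, has a window (chr2:224031479-224031728, GC content 53.2%) with 1 E-box match. A further E-box match lay within the 300 bases at the summit of the accessible region over the SERPINE2 promoter (chr2:224039488-224039787), upstream of the first start. Of 35116 RefSeq promoters of this length, 6.57% held the AP-1 motif, 11.9% the TEAD motif, 6.34% the E-box, 2.52% the M-box and 13.6% the SMAD motif. Of 78175 accessible windows of 300 bases, 19.9% held the TEAD motif and 5.50% the E-box. These matches describe letters in a window and not occupied sites.

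In untreated WM989 the urokinase receptor PLAUR and the urokinase inhibitor SERPINB2 were far higher in primed cells, SERPINE2 was moderately higher, the activator PLAT was lower, and urokinase itself was barely detected in either state. PLAUR stood at 16.0 CPM in drug-susceptible and 215 CPM in primed cells, a ratio of 13.4 (95% interval 13.1 to 13.8). SERPINB2 stood at 0.247 and 38.7 CPM (ratio 157, 132 to 187) and SERPINE2 at 172 and 402 CPM (ratio 2.34, 2.31 to 2.36). PLAT stood at 59.7 and 22.1 CPM (ratio 0.370, 0.358 to 0.382). The remaining pair were scarce: SERPINF1 stood at 2.53 CPM in drug-susceptible and 1.17 in primed cells (ratio 0.463, 0.401 to 0.533), and PLAU at 0.372 and 0.338 CPM (ratio 0.908, 0.677 to 1.21). The states were called on these same counts and the series holds 1 sample of this kind, so these ratios are descriptions without a test. The untreated Control cells of the treatment experiment, given below, did not repeat the sizes of these differences. In both replicates there SERPINE2 differed more between states, and PLAUR and PLAT differed less. Primed SERPINB2 there, on few counts, was below the pooled level here, but its r1 value lay within the range of the r1 libraries given below. Among 6316 genes of at least 20 CPM in a state, 10.4% exceeded a ratio of 2 and 6.55% lay under 0.5.

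**Figure D1:**
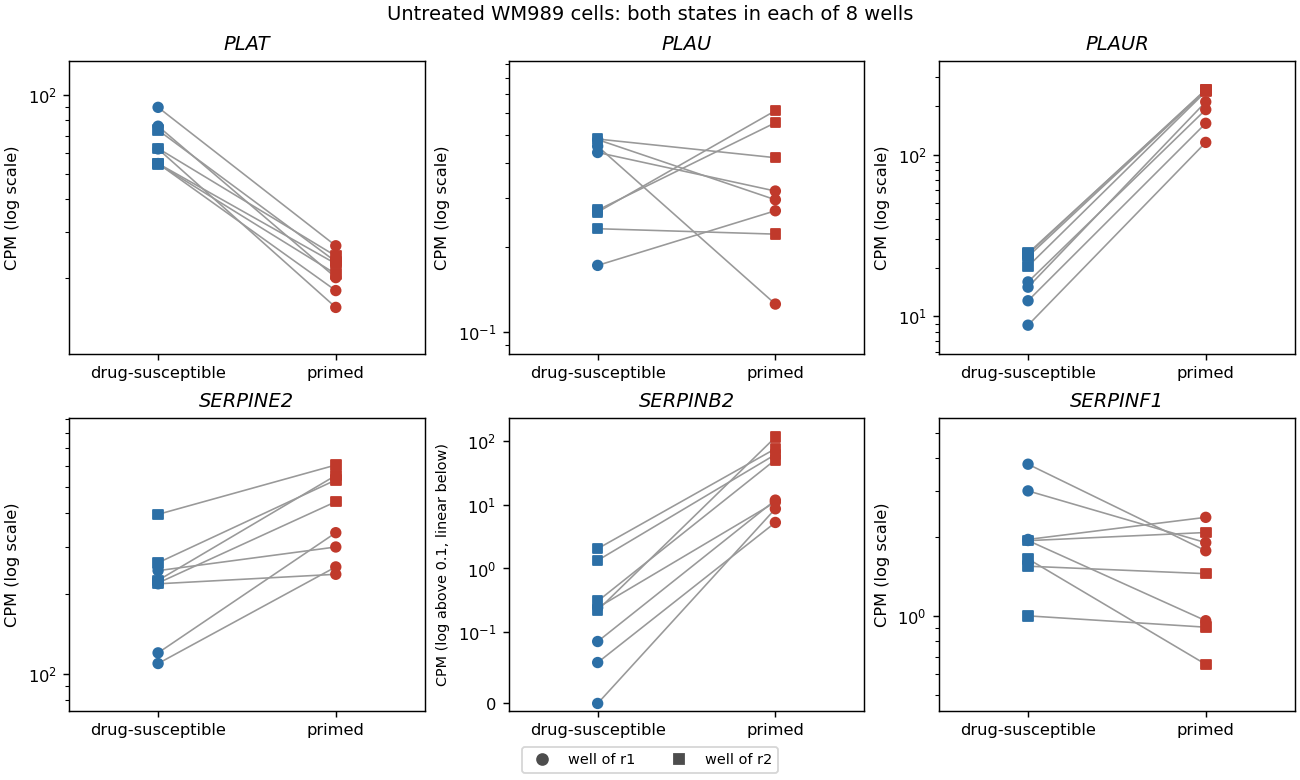
CPM (log axis, linear below 0.1 for SERPINB2) of the 6 members in drug-susceptible and primed cells of the 8 untreated WM989 libraries (wells in the plot), with circles for r1, squares for r2 and a line joining the states of 1 library. The PLAUR points are higher in primed cells of all 8 libraries and the PLAT points lower in all 8, whereas the PLAU lines cross.

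For the receptor PLAUR the libraries did not overlap between states. In drug-susceptible cells the 4 r1 libraries gave 15.1, 16.3, 12.5 and 8.82 CPM, and the 4 r2 libraries 24.6, 20.4, 23.4 and 24.2. In primed cells of the same libraries the values were 212, 190, 156 and 119 CPM in r1, and 250, 245, 249 and 252 in r2. The r2 libraries were thus the higher ones in both states, and the ratio within a library ran from 10.2 to 14.0. The mean of the libraries, each given equal weight, gave a ratio of 11.5. Pooled over the r1 libraries the ratio was 16.3, above that of any library, so pooled ratios also depend on how the libraries were mixed. PLAUR was also found in most primed cells rather than in a few. With every cell thinned to 10000 UMIs, 75.3% of primed and 13.5% of drug-susceptible cells held at least 1 PLAUR UMI (97.0% and 47.1% unthinned), and the 10% of primed cells richest in PLAUR held 34.5% of its UMIs there.

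SERPINB2, by contrast, was concentrated in a minority of primed cells. Primed cells of the r1 libraries held 5.24, 11.7, 8.57 and 10.9 CPM and those of r2 74.5, 60.5, 50.1 and 113 CPM. Drug-susceptible cells held 0.0576, 0.0872, 0 and 0.244 CPM in r1 and 2.04, 1.34, 0.308 and 0.222 in r2, and the library at 0 allows 3 counts at most. All 8 libraries were higher in primed cells, without overlap between states, while r1 and r2 differed several-fold within the primed state. The ratio of the states was 76.4 over the r1 libraries and 159 over those of r2, and where drug-susceptible counts were above 0 it ran from 36.6 to 508. Only 24.1% of primed cells held a SERPINB2 UMI, against 0.826% of drug-susceptible cells (10.2% and 0.0929% after thinning). Free RNA can place a UMI in a droplet whose cell does not express the gene, and these libraries hold no cell type known to lack it that would give a background share. The drug-susceptible share was 20.5 and 13.4% in the pair of r2 libraries that were 79.7 and 76.9% primed, and 0 to 1.09% in the others, so drug-susceptible SERPINB2 and the ratios within a library are not separable from background. The same limit holds for the shares of cells given for the other members. The richest 10% of primed cells held 91.9% of the primed SERPINB2 UMIs, and the richest single cell held 499.

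SERPINE2 was abundant in both states, and its states overlapped across libraries although not within any. The r1 libraries held 244, 218, 120 and 110 CPM in drug-susceptible cells and 299, 237, 339 and 252 CPM in primed cells. Those of r2 held 397, 261, 225 and 219 CPM against 607, 533, 555 and 442 CPM. Within a library the ratio ran from 1.09 to 2.82 with a median of 2.03. In each replicate drug-susceptible SERPINE2 was higher in the first pair of libraries, 56.9 to 79.7% primed, than in the second pair, 6.85 to 9.42% primed. The reason was not tested. The mean of the libraries, each given equal weight, gave a ratio of 1.82 in place of 2.34. After thinning, SERPINE2 was detected in 83.6% of the primed cells, against 66.1% of the drug-susceptible ones. In primed cells its level differed with the called cell cycle phase, at 442 CPM in G1, 391 in S and 249 in G2M, and in drug-susceptible cells the order was the same (242, 156 and 145 CPM).

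The activators behaved unlike the receptor. PLAT was lower in primed cells of all 8 libraries, at 26.6, 20.1, 15.5 and 18.0 CPM in r1 and 24.3, 23.2, 22.8 and 20.8 in r2. The drug-susceptible cells held 89.6, 75.9, 62.2 and 54.7 CPM in r1 and 62.5, 73.4, 54.8 and 54.6 in r2. The lowest drug-susceptible library thus lay well above the highest primed one. After thinning, 18.7% of primed and 40.5% of drug-susceptible cells held a PLAT UMI. PLAU was higher in primed cells in 3 of 8 libraries, ranged from 0.173 to 0.485 CPM in drug-susceptible and from 0.126 to 0.612 in primed cells, with a ratio of 0.416 over the r1 libraries and 1.91 over those of r2. About 2 in 100 cells held a PLAU UMI in either state (2.06% in the drug-susceptible and 2.11% in the primed state), and the replicates lay on opposite sides of a ratio of 1. Plasminogen itself (PLG) had 10 counts in primed and 9 in drug-susceptible cells.

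SERPINF1 was low in both states and its lower pooled level in primed cells was not shared by all libraries. The drug-susceptible cells held 1.96, 1.94, 3.79 and 3.0 CPM in r1 and 1.65, 1.0, 1.55 and 1.94 in r2, and the primed cells 2.38, 0.960, 1.77 and 1.90 in r1 and 0.655, 0.907, 1.45 and 2.08 in r2. The states overlapped, 2 of 8 libraries were higher in primed cells, and the equal-weight mean gave a ratio of 0.720. ANXA2 and S100A10, which together form a plasminogen-binding complex at the cell surface, had pooled ratios of 1.84 and 1.88. Within a library the ratio ran from 1.34 to 2.31 for ANXA2 and from 1.43 to 1.85 for S100A10, so the pooled S100A10 value lay above every library. The equal-weight means gave 1.70 and 1.73.

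**Figure D2:**
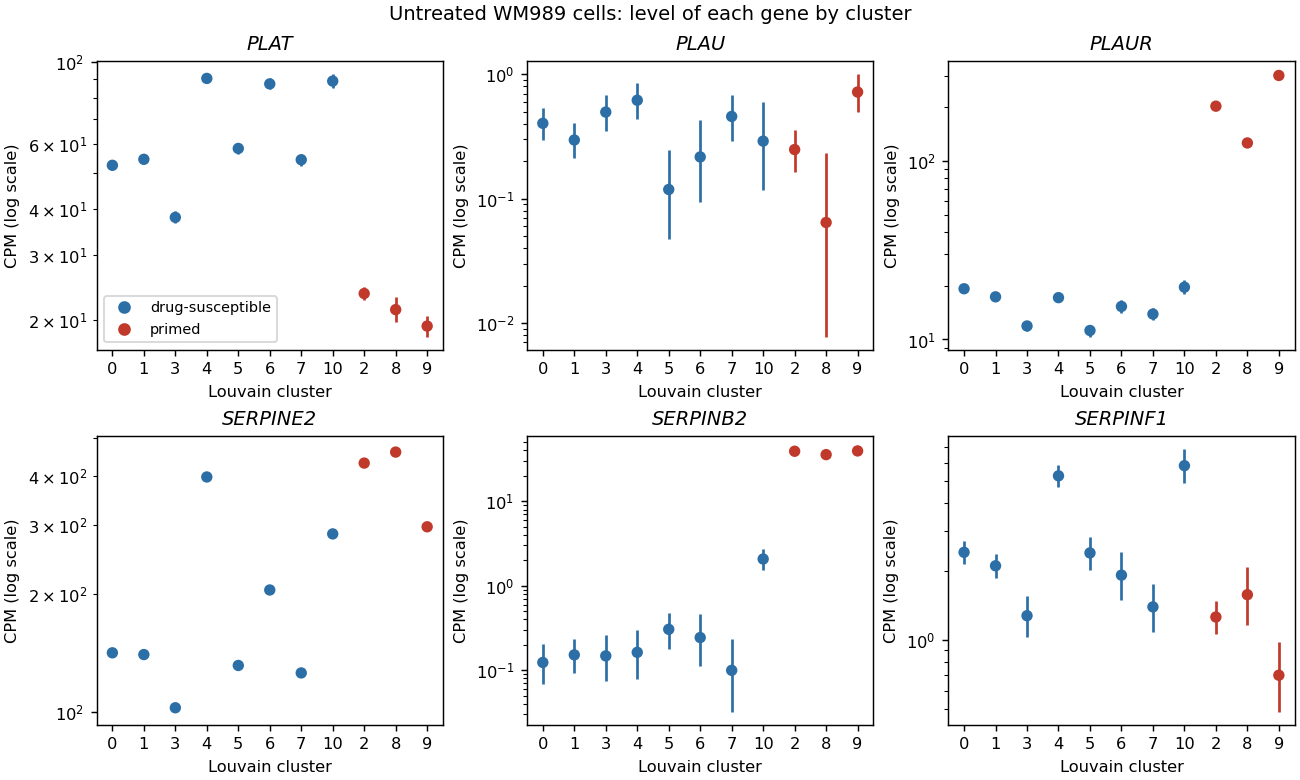
CPM (log axis) of the 6 members in the 11 clusters of untreated WM989, in blue for drug-susceptible and red for primed clusters, with exact Poisson 95% intervals as bars. PLAUR and SERPINB2 are highest in clusters 2, 8 and 9, whereas SERPINE2 in the drug-susceptible cluster 4 lies among the primed clusters.

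Across the 11 clusters of the authors, of which 2, 8 and 9 are primed, the members followed different orders. Clusters were formed on these same counts, so the levels are descriptions. PLAUR was highest in cluster 9 (302 CPM), then 2 (203) and 8 (126), and every drug-susceptible cluster lay between 11.2 and 19.6 CPM. SERPINB2 stood at 39.5, 39.2 and 35.7 CPM in clusters 9, 2 and 8, where the first pair lie within each other's counting intervals, but the shares of cells holding it were further apart, at 33.8%, 23.6% and 16.0%. The drug-susceptible cluster 10 held 2.08 CPM of SERPINB2, above the 0.0998 to 0.305 of the other drug-susceptible clusters. SERPINE2 did not separate the states: primed clusters 8 and 2 held 461 and 432 CPM, drug-susceptible cluster 4 held 398, primed cluster 9 held 297 and drug-susceptible cluster 10 held 285. Those 2 drug-susceptible clusters were also the highest for PLAT (90.1 CPM in cluster 4 and 88.6 in cluster 10) and for SERPINF1 (5.25 and 5.81). PLAT was lowest in the primed clusters, at 23.5 CPM in cluster 2, 21.3 in 8 and 19.2 in 9. PLAU reached 0.721 CPM in cluster 9 and was 0.0645 in cluster 8.

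Pearson correlation over the 11 clusters, among 7021 genes of at least 20 CPM in a cluster, gave the genes most like each member. The clusters share libraries, so these values are descriptions. PLAUR was most like KLF2 (r = 0.995), MYH15 (0.994) and TFPI2 (0.993), and SERPINB2 most like IL11 (0.995), SCG2 (0.993) and PAG1 (0.993). SERPINE2 was most like NPC2 (0.975), TCTN3 (0.949) and GPNMB (0.948), and PLAT most like TSPYL2 (0.975), CLIC4 (0.965) and OSTM1 (0.961). SERPINF1 was most like CPQ (0.965), EIF4B (0.937) and FKBP11 (0.928). For PLAU the highest value was 0.826, with KIAA1549L.

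A list of 28 genes beside the members, the plasmin list, also holds coagulation genes (F3, TFPI and PROCR) and integrins. It was chosen with earlier results of these data known, so its counts are descriptions of the list. Of the 28, 16 reached 5 CPM in a state of untreated WM989, of which 7 exceeded a ratio of 2 and 1 (A2M, a broad protease inhibitor, 0.265) lay under 0.5, with a median ratio of 1.86. The 7 were TFPI2 (39.0), TFPI (12.5), the tissue factor gene F3 (8.53), LRP1 (5.68), ITGB1 (4.15), ITGB3 (2.91) and PROCR (2.48). Of all 10313 genes at this level 11.2% exceeded a ratio of 2 and 6.80% lay under 0.5. Among 27 other serpins only 4 reached 5 CPM, from SERPINH1 (ratio 1.04) to SERPINB8 (8.86). In WM983B, 18 genes of the plasmin list reached that level and 2 exceeded a ratio of 2, with a median of 1.29, beside 1.78% above 2 and 0.928% under 0.5 of all 10673 genes at this level, and the 6 serpins that did so ran from SERPINB6 (1.17) to SERPIND1 (2.76).

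In WM983B the receptor and both inhibitors were again higher in primed cells, but PLAT went the other way. PLAT stood at 54.8 CPM in drug-susceptible and 114 CPM in primed cells, a ratio of 2.09 (2.0 to 2.19), where WM989 gave 0.370. PLAUR stood at 45.1 and 117 CPM (ratio 2.60, 2.48 to 2.73), and SERPINE2 at 777 and 1997 CPM (2.57, 2.54 to 2.60). SERPINB2 had 10 counts in drug-susceptible and 83 in primed cells, 0.186 and 1.70 CPM (ratio 9.16, 4.74 to 19.8). Of the 83, 29 lay in 1 cell, and 4.92% of primed cells held any, so this counting interval is too narrow. SERPINF1 was lower in primed cells, at 3.09 against 6.75 CPM (0.458, 0.376 to 0.555). PLAU had 1 count in each state, and PLG had 0. For comparison, 1.30% of 6856 genes exceeded a ratio of 2 in this line and 0.686% lay under 0.5. Both primed clusters of WM983B, 2 and 0, held more PLAT (127 and 113 CPM) than the drug-susceptible clusters 3 and 1 (73.1 and 51.8), and cluster 2 with 91 cells was the highest for PLAUR (251 CPM) and SERPINE2 (3262 CPM). With 1 library of this line there is no replicate check.

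**Figure D3:**
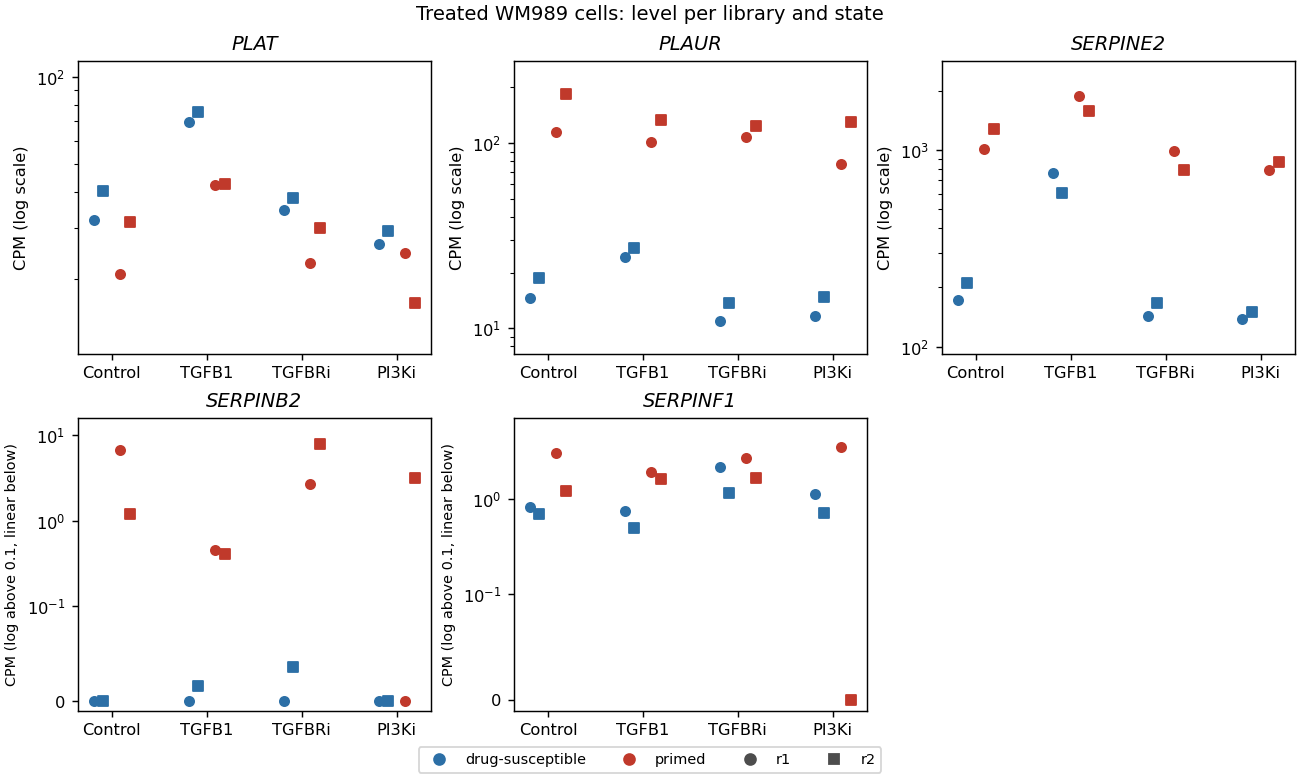
CPM (log axis, linear below 0.1 for SERPINB2 and SERPINF1) of PLAT, PLAUR, SERPINE2, SERPINB2 and SERPINF1 in each of the 8 libraries of the treatment experiment, with blue for drug-susceptible and red for primed cells, circles for r1 and squares for r2. In drug-susceptible cells both TGFB1 libraries lie above all others for SERPINE2, PLAT and PLAUR.

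The treatment experiment asked how TGFB1, its receptor inhibitor and PI3K inhibition alter these states. Over all cells, SERPINE2, PLAUR and PLAT rose under TGFB1, PLAUR fell under both inhibitors, and SERPINE2 and PLAT fell under PI3Ki. SERPINE2 stood at 188 and 243 CPM in Control (r1, r2), 1048 and 860 under TGFB1, 159 and 189 under TGFBRi and 141 and 156 under PI3Ki. PLAUR stood at 16.3 and 23.9 CPM in Control, 43.9 and 55.1 under TGFB1, 12.7 and 17.4 under TGFBRi and 11.9 and 15.7 under PI3Ki. PLAT stood at 31.8 and 40.0, 62.8 and 66.8, 34.3 and 37.9, and 26.4 and 29.1 CPM in the same order. For all 3 genes the TGFB1 libraries did not overlap any other, but the share of all genes separated in this way was not counted. For PLAUR each replicate was lower under both inhibitors than in its own Control. In edgeR's quasi-likelihood test with the replicate as a block, TGFB1 raised SERPINE2 by 2.15 ± 0.11 (log2, SE, adjusted p = 7.4e-13), PLAUR by 1.30 ± 0.07 (adjusted p = 2.0e-12) and PLAT by 0.84 ± 0.07 (adjusted p = 1.9e-09). These 3 of the 5 members tested were called, beside a background of 29.0% of 18389 genes called under TGFB1, 2.53% under TGFBRi and 12.7% under PI3Ki. In sums over all cells, fewer cells of a state and less RNA per cell cannot be told apart, and the primed share moved with treatment: 2.26 and 4.47% in Control, 29.1 and 31.3% under TGFB1, 2.26 and 4.32% under TGFBRi and 0.647 and 1.21% under PI3Ki.

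Within drug-susceptible cells the same 3 genes rose under TGFB1, although a large part of these cells lay in a cluster that was rare in Control (cluster 3, described with the states below). States were called after treatment on these same counts, so a cell that changed far enough could carry the other label. The p-values within and between states do not allow for this. SERPINE2 stood at 173 and 210 CPM in Control and at 767 and 603 under TGFB1 (1.83 ± 0.11 log2, adjusted p = 1.4e-11 in edgeR). PLAT went from 32.0 and 40.3 to 69.6 and 75.4 CPM (1.0 ± 0.07, adjusted p = 1.9e-10). PLAUR went from 14.6 and 18.8 to 24.4 and 27.3 CPM (0.63 ± 0.08, adjusted p = 1.6e-06), less than over all cells. These calls held in every alternative run. Among 17914 genes tested in these cells, 14.9% were called under TGFB1, 2.81% under TGFBRi and 12.1% under PI3Ki. SERPINF1 had log2 changes of −0.32 (adjusted p = 0.41) in drug-susceptible and 0.20 (adjusted p = 0.50) in all cells, which ran from −0.59 to −0.10 and from −0.02 to 0.37 with 1 library left out, the ends being the values without Control r1 and Control r2. PLAU, at 14 to 30 counts a library, had log2 changes of −0.38 (adjusted p = 0.54) and −0.51 ± 0.34 (adjusted p = 0.29).

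Under the receptor inhibitor PLAUR and SERPINF1 were called, and each call depended on 1 Control library and on the replicate block. PLAUR in drug-susceptible cells stood at 10.9 and 13.7 CPM under TGFBRi, −0.42 ± 0.08 on the log2 scale against Control (adjusted p = 0.0021 in edgeR), and −0.39 ± 0.07 over all cells (adjusted p = 0.0029). Without the Control r2 library the PLAUR change was −0.38 (adjusted p = 0.061) in drug-susceptible and −0.32 (adjusted p = 0.20) in all cells. SERPINF1 rose, from 0.821 and 0.695 CPM in Control to 2.14 and 1.14 under TGFBRi in drug-susceptible cells (1.1 ± 0.18, adjusted p = 5.0e-04), and from 67 and 57 to 177 and 101 counts over all cells (1.06 ± 0.18, adjusted p = 0.0010). Without the Control r1 library the SERPINF1 change was 0.83 (adjusted p = 0.074) in drug-susceptible and 0.85 (adjusted p = 0.075) in all cells, so this call rests on that library. Both calls were lost without the replicate block, with adjusted p of 0.38 for PLAUR and 0.26 for SERPINF1 in drug-susceptible cells. SERPINE2 (−0.29 ± 0.10, adjusted p = 0.19) and PLAT (0.03, adjusted p = 0.92) were not called over all cells, although SERPINE2 had an adjusted p of 0.0069 without the filter on low counts, 0.038 without TGFB1 r1 and 0.041 without TGFB1 r2.

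Under PI3Ki the 3 members called over all cells were lower, PLAUR by −0.43 ± 0.07 (adjusted p = 3.5e-04), SERPINE2 by −0.43 ± 0.11 (adjusted p = 0.0081) and PLAT by −0.26 ± 0.07 on the log2 scale (adjusted p = 0.014 in edgeR). PLAT was also called in drug-susceptible cells, at 26.4 and 29.2 CPM against 32.0 and 40.3 in Control (−0.27 ± 0.07, adjusted p = 0.011). The drug-susceptible cells also lay in other clusters: cluster 6 made up 28.6 and 19.6% of PI3Ki cells against 3.11 and 1.06% of Control, and cluster 0 made up 22.7 and 17.2% against 43.3 and 31.8%. Within cluster 0, PLAT stood at 24.8 and 29.5 CPM under PI3Ki and 29.1 and 37.2 in Control, and within cluster 6 at 30.7 and 35.0 against 39.6 and 44.5, lower in each replicate. In drug-susceptible cells SERPINE2 (138 and 150 CPM, −0.31 ± 0.10, adjusted p = 0.053) and PLAUR (11.7 and 14.8 CPM, −0.23 ± 0.08, adjusted p = 0.052) missed the threshold of 0.05, and both passed it without the filter on low counts (adjusted p = 7.6e-04 and 0.043) or without any 1 TGFB1 or TGFBRi library, SERPINE2 also without Control r1 (0.012). Control r2 is the highest of the Control and PI3Ki libraries for each of these genes. Without it the changes over all cells were −0.17 for PLAT (adjusted p = 0.44) and −0.27 for SERPINE2 (adjusted p = 0.29), without PI3Ki r1 the adjusted p was 0.15 for PLAT and 0.11 for SERPINE2, and without PI3Ki r2 it was 0.14 and 0.052. In drug-susceptible cells the PLAT call was lost without the same 3 libraries (adjusted p = 0.38, 0.13 and 0.14). Without the replicate block none of these calls remained (adjusted p = 0.26 for PLAUR, 0.11 for SERPINE2 and 0.17 for PLAT over all cells), and DESeq2 gave 0.22 for SERPINE2. SERPINF1 had a change of 0.29 (adjusted p = 0.38) over all cells.

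**Figure D4:**
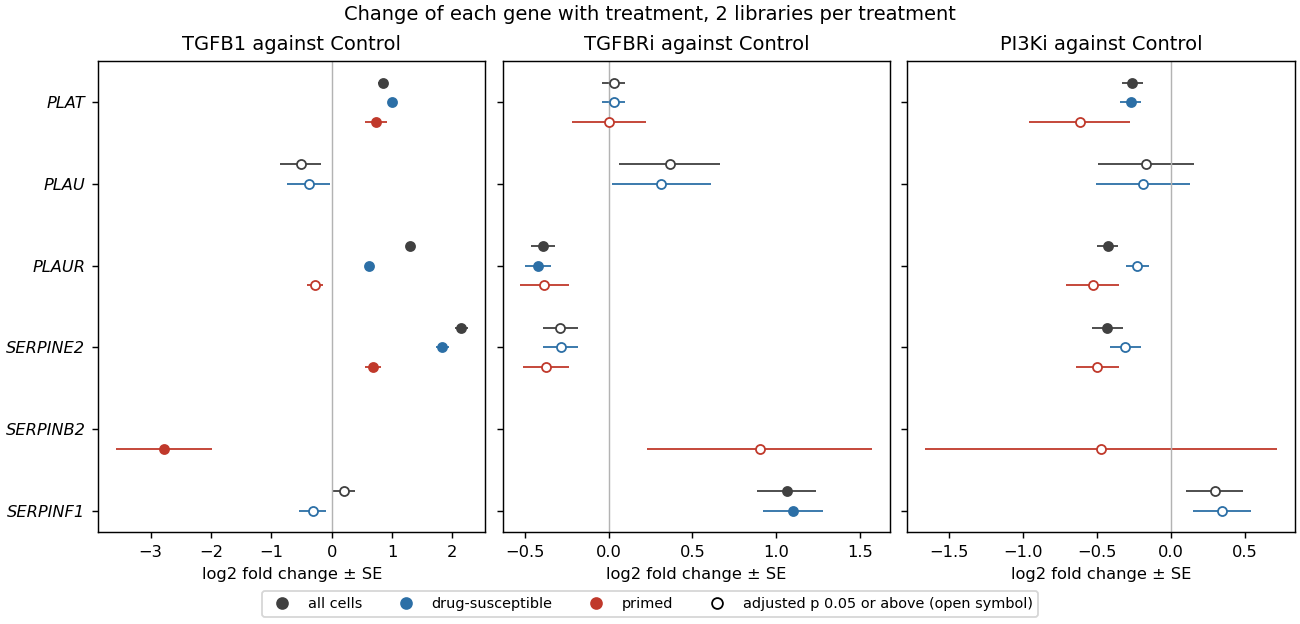
Log2 fold change against Control (points) with its standard error (bars) for the 6 members under TGFB1, TGFBRi and PI3Ki, in all (black), drug-susceptible (blue) and primed (red) cells. Filled points have an adjusted p under 0.05 in edgeR, and the SERPINE2 and PLAUR points under TGFB1 are higher in drug-susceptible than in primed cells.

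In primed cells the inhibitor SERPINE2 was higher under TGFB1, the receptor PLAUR was not, and SERPINB2 had too few UMIs for a usable test. SERPINE2 stood at 1005 and 1273 CPM in primed Control cells and 1884 and 1577 under TGFB1 (0.68 ± 0.13 log2, adjusted p = 2.3e-04 in edgeR), a call lost without Control r1 (0.48, adjusted p = 0.16) or TGFB1 r1 (0.49, adjusted p = 0.16). PLAT stood at 20.9 and 31.4 against 42.4 and 42.6 CPM (0.74 ± 0.18, adjusted p = 0.0027), with adjusted p of 0.16 without Control r1, 0.22 without TGFB1 r1 and 0.12 in DESeq2. PLAUR stood at 116 and 185 against 102 and 133 CPM (−0.27 ± 0.13, adjusted p = 0.19). SERPINB2 had 9 and 3 counts in primed Control cells (6.71 and 1.21 CPM) and 9 and 9 under TGFB1 (0.447 and 0.403 CPM), a change of −2.78 ± 0.80 (adjusted p = 0.013). The filter on low counts kept SERPINB2 only through libraries where it was high, Control r1 among them and neither TGFB1 library. A lower value under TGFB1 was thus favoured in advance, and this call is no support for a fall. That call rests on few UMIs: without Control r1 the change was −1.02 (adjusted p = 0.81), without Control r2 −4.29 (adjusted p = 0.0083), without TGFB1 r1 −2.94 (adjusted p = 0.13), without TGFB1 r2 −2.66 (adjusted p = 0.17), without TGFBRi r2 −2.84 (adjusted p = 0.060), and DESeq2 gave −3.07 (adjusted p = 0.084). The primed cells were also largely of another cluster under TGFB1 than in Control, and within the shared cluster 10 (values below) SERPINB2 was not lower in r1. Among 10930 genes tested in primed cells, 13.3% were called under TGFB1, 0.375% under TGFBRi and 1.78% under PI3Ki. No member was called under either inhibitor in primed cells, where PI3Ki left 25 and 70 cells. SERPINE2 then stood at 990 and 793 CPM under TGFBRi (−0.37, adjusted p = 0.38) and 788 and 873 under PI3Ki (−0.50, adjusted p = 0.066). The latter passed the threshold without the filter on low counts (0.013) and without Control r1 (0.046), PI3Ki r2 (0.026), TGFBRi r1 (0.023) or TGFBRi r2 (0.034). PLAUR stood at 109 and 123 (−0.38, adjusted p = 0.40) and at 77.1 and 130 CPM (−0.53, adjusted p = 0.15). SERPINB2 had 4 and 24 counts under TGFBRi and 0 and 3 under PI3Ki.

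The change under TGFB1 differed for PLAUR and SERPINE2 between the states as labelled after treatment. Those labels were called on these same counts, so the size of a change within a state depends on the labelling. The difference is thus not a test of how cells of either state respond. The difference of the TGFB1 effect, primed minus drug-susceptible, was −0.84 ± 0.11 for PLAUR (log2, adjusted p = 2.7e-13 in edgeR) and −1.05 ± 0.09 for SERPINE2 (adjusted p = 2.0e-31), and both held in every alternative run. For PLAT it was −0.16 ± 0.17 (adjusted p = 0.68). With TGFB1, 9.98% of 18502 genes differed in this test, 1016 with a higher and 831 with a lower effect in primed cells, a split that became 682 and 1000 with RLE in place of TMM scaling. Under TGFBRi 0.551% and under PI3Ki 1.21% were called, and for PLAUR (0.05 and −0.29) and SERPINE2 (−0.06 and −0.20) neither difference was called. The states hold different clusters in these libraries: the primed cluster 4 made up 28.6 and 30.4% of the TGFB1 cells and at most 0.163% of Control cells, while the primed cluster 10 made up 2.14 and 4.31% of Control. Over the whole experiment cluster 4 held 1714 CPM of SERPINE2, 118 of PLAUR and 0.359 of SERPINB2, and cluster 10 held 1072, 134 and 4.46. Within cluster 10 alone, with 89 and 159 cells in Control and 29 and 51 under TGFB1, SERPINE2 stood at 1026 and 1293 CPM in Control and 1976 and 1743 under TGFB1. PLAT there stood at 22.5 and 31.8 against 39.3 and 120 CPM, and PLAUR at 119 and 190 against 101 and 112. SERPINB2 had 9 and 3 counts in Control (7.25 and 1.26 CPM) and 3 and 0 under TGFB1 (8.42 and 0 CPM). Cluster 3, a drug-susceptible cluster that made up 40.3 and 28.8% of the TGFB1 cells and 1.35 and 1.60% of Control, held 89.3 CPM of PLAT, 1150 of SERPINE2 and 29.6 of PLAUR. Within cluster 3, with 56 and 59 cells in Control and 2182 and 1619 under TGFB1, SERPINE2 stood at 1073 and 1587 CPM in Control and 1141 and 1158 under TGFB1, PLAUR at 29.0 and 49.2 against 26.9 and 32.9, and PLAT at 37.1 and 63.0 against 85.6 and 98.2. SERPINE2 and PLAUR were thus not higher under TGFB1 in both replicates there, whereas PLAT was. Within the drug-susceptible cluster 1, with 870 and 687 against 738 and 608 cells, all 3 were higher in each replicate, SERPINE2 at 159 and 209 against 420 and 367 CPM, PLAUR at 12.8 and 17.2 against 23.8 and 23.4, and PLAT at 29.8 and 35.8 against 61.1 and 63.3. The drug-susceptible cluster 0 held 1798 and 1173 cells in Control and 119 and 115 under TGFB1. SERPINE2 there stood at 162 and 205 against 322 and 321 CPM, and PLAUR at 14.3 and 16.2 against 23.1 and 24.8. PLAT in that cluster stood at 29.1 and 37.2 against 34.1 and 78.2 CPM. Whether the difference between states holds within clusters was not tested.

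Of 20 genes of the plasmin list tested over all cells, 8 rose and 4 fell under TGFB1, none was called under TGFBRi, and 1 rose and 8 fell under PI3Ki, beside 29.0%, 2.53% and 12.7% of all genes called. In drug-susceptible cells the counts were 6 and 3, 0 and 0, and 1 and 7, beside 14.9%, 2.81% and 12.1% of all genes. In primed cells, with 17 tested, they were 2 and 1, 0 and 0, and 0 and 5, beside 13.3%, 0.375% and 1.78% of all genes. The median change of the list over all cells was 0.13 under TGFB1 and −0.23 under PI3Ki, against 0.01 over all genes under TGFB1. Of 7 other serpins tested over all cells, 5 rose and 1 fell under TGFB1 (median 1.08), SERPINB8 by 1.08 and SERPINH1 by −0.27 among them, and SERPINH1 rose under TGFBRi. Of the 5 tested in drug-susceptible cells, 2 rose and 1 fell under TGFB1 (median 0.15), with SERPINB8 at 0.56 and SERPINH1 at −0.53, and SERPINH1 again rose under TGFBRi. The 4 tested in primed cells had a median change of −0.10 under TGFB1, with adjusted p of at least 0.51 in edgeR.

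Accessibility near the members was compared as the fold enrichment of the authors' peaks, per library and relative to the median of the library. Of 112 regions within 20000 bases of a member, 28 had a peak in all 12 libraries and were tested: 8 at PLAT, 7 at SERPINE2, 6 at PLAUR, 4 at SERPINF1, 2 at SERPINB2 and 1 at PLAU. Against Mix, 2 were more and 0 less accessible in EGFR_High, and 5 were more and 1 less accessible in both NGFR-High and EGFR-NGFR-High (limma, adjusted p under 0.05). Of 78175 regions, 5.83%, 12.2% and 12.7% were called in these comparisons. For EGFR_High the direction over the genome depended on the scaling, with 3137 higher and 1421 lower regions as centred but 1491 and 4774 without centring, where the median region moved by −0.16.

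**Figure D5:**
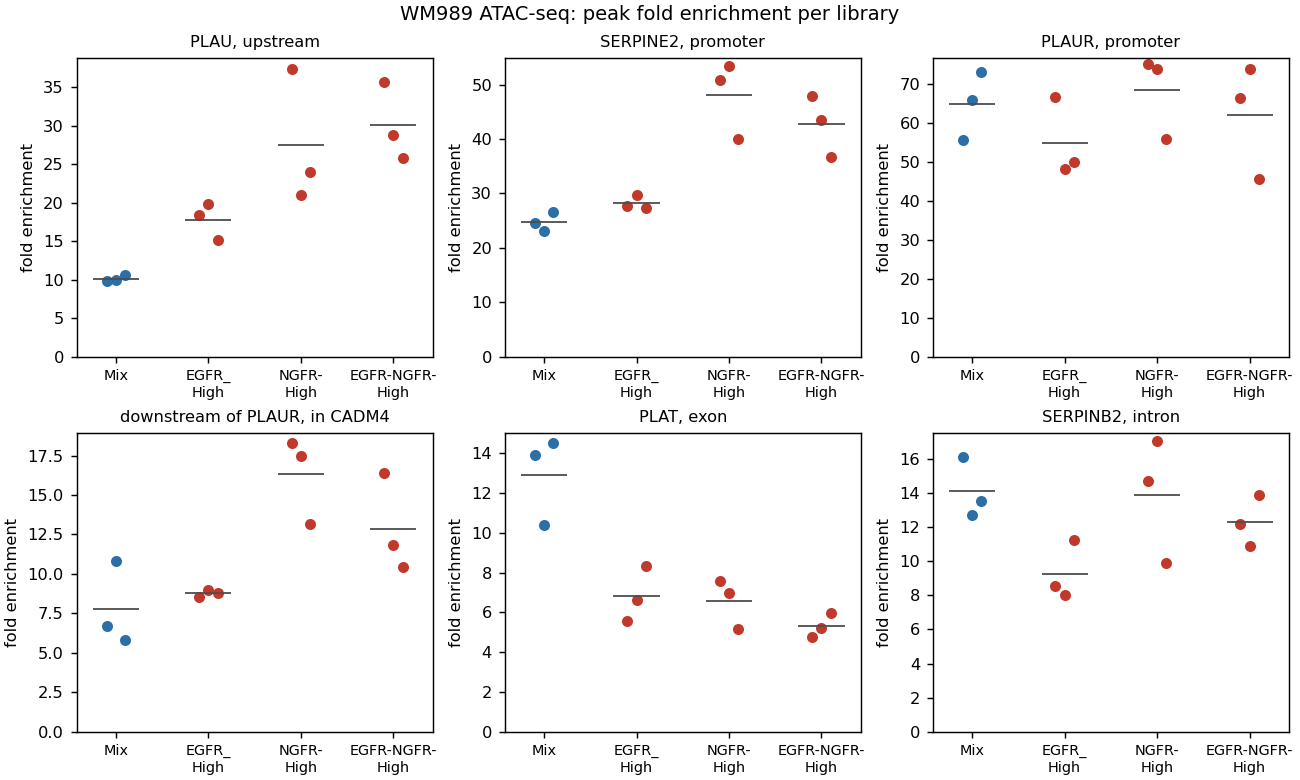
Fold enrichment of the peak (vertical axis) in each of the 3 libraries of every sort, with the mean as a line, blue for Mix and red for the other sorts, at 6 regions near the members. The 3 Mix libraries lie below all others at the PLAU and SERPINE2 regions and above all others at the PLAT exon.

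The only region tested at PLAU, the gene barely seen in the RNA, was more accessible in all 3 sorts. It lies at chr10:73906518-73907390, upstream of the first RefSeq start of PLAU, and its central bases are the PLAU sequence printed above. Fold enrichment was 9.86, 9.90 and 10.6 in Mix, 18.4, 19.9 and 15.2 in EGFR_High, 37.4, 21.0 and 24.0 in NGFR-High and 35.7, 28.8 and 25.8 in EGFR-NGFR-High. Mix did not overlap any other sort, and the log2 differences were 1.0 ± 0.19 (adjusted p = 0.0084, limma), 1.37 (adjusted p = 6.3e-04) and 1.51 (adjusted p = 2.6e-04). A smaller peak within 500 bases of that start, chr10:73909050-73909309, was called in 2 NGFR-High and 2 EGFR-NGFR-High libraries and in 0 of Mix and of EGFR_High. At the SERPINE2 promoter (chr2:224038189-224040483), which covers the printed SERPINE2 sequence, fold enrichment was 24.6, 23.1 and 26.6 in Mix, 27.7, 29.8 and 27.4 in EGFR_High, 50.9, 53.4 and 40.0 in NGFR-High and 47.9, 43.5 and 36.7 in EGFR-NGFR-High. The differences were 0.39 (adjusted p = 0.13), 0.93 ± 0.14 (adjusted p = 0.0012) and 0.73 (adjusted p = 0.0046). The PLAU and SERPINE2 calls held in every alternative run.

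At PLAUR, whose RNA was higher in primed cells of all 8 untreated libraries, the promoter did not differ detectably. The promoter region (chr19:43668104-43671075) had a fold enrichment of 55.6, 66.0 and 73.1 in Mix, 66.6, 48.2 and 49.9 in EGFR_High, 75.2, 73.9 and 55.9 in NGFR-High and 66.4, 73.7 and 45.7 in EGFR-NGFR-High, and the log2 differences were −0.06, 0.05 and −0.14, each with an SE of 0.21. A region 33582 bases downstream of the start, chr19:43636037-43637137 in the neighbouring gene CADM4, stood at 6.72, 10.8 and 5.81 in Mix and at 18.3, 17.5 and 13.2 in NGFR-High (1.08 ± 0.22, adjusted p = 0.0057). In EGFR-NGFR-High it stood at 16.4, 11.8 and 10.4, where 1 Mix library overlapped (0.70, adjusted p = 0.048), a call lost under quantile normalization (adjusted p = 0.053) and without 10 of the 12 libraries, each left out in turn (adjusted p of 0.053 to 0.18). A second CADM4 region, chr19:43635056-43635668, was called in NGFR-High (0.85, adjusted p = 0.024) but not without Mix 2 (adjusted p = 0.10), NGFR-High 1 (0.099) or NGFR-High 2 (0.095). At SERPINB2, a peak over the printed promoter (chr18:63887538-63887773) was called in 1 NGFR-High and 1 EGFR-NGFR-High library and in 0 of the Mix and EGFR_High ones. This peak was weak too, at 5.64 and 5.95 fold, and the share of all regions with such a pattern was not counted. Neither SERPINB2 region tested was called, the larger being chr18:63882400-63883219 with log2 differences of 0.29, 0.28 and 0.45 (adjusted p of 0.35, 0.34 and 0.11).

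SERPINF1 had its called regions beyond its 3′ end, inside the neighbouring gene SMYD4. At chr17:1787563-1788156, fold enrichment was 8.06, 8.48 and 8.71 in Mix, 12.8, 10.9 and 8.32 in EGFR_High, 23.1, 13.6 and 16.0 in NGFR-High and 28.6, 19.8 and 21.3 in EGFR-NGFR-High, with differences of 0.51, 1.0 (adjusted p = 0.0063) and 1.4 (adjusted p = 7.1e-04). At chr17:1779391-1780486 the differences were 0.68 (adjusted p = 0.038), 0.55 (adjusted p = 0.058) and 0.65 (adjusted p = 0.027), and the first was 0.49 (adjusted p = 0.14) without centring. The first was lost without EGFR_High 1 or 2, EGFR-NGFR-High 1, Mix 1 or 2, or NGFR-High 2 (adjusted p of 0.052 to 0.14), and the last without EGFR-NGFR-High 1 or 3 or Mix 1 or 2 (0.064 to 0.11). Which gene these regions act on was not measured.

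PLAT, the member lower in primed WM989 cells, held a region that was less accessible. It was the only 1 of the 28 called lower before the alternative runs, which called further regions lower (below). The region lies over a PLAT exon (chr8:42184544-42185176 in hg38, in the gene at chr8:42174718-42207709 on the minus strand). Fold enrichment was 13.9, 10.4 and 14.5 in Mix, 5.55, 6.62 and 8.32 in EGFR_High, 7.56, 7.0 and 5.17 in NGFR-High and 4.76, 5.20 and 5.95 in EGFR-NGFR-High. Mix was higher than every other library, with differences of −0.73 ± 0.21 (adjusted p = 0.053, limma), −1.0 (adjusted p = 0.0068) and −1.33 (adjusted p = 0.0011). The first passed the threshold without centring (−0.92, adjusted p = 0.014) and under quantile normalization (adjusted p = 0.047). Further regions were called lower in EGFR_High under other scaling. A PLAT intron region (chr8:42196027-42197679), at 49.3, 47.6 and 42.1 in Mix and 27.3, 34.0 and 25.5 in EGFR_High, had a difference of −0.50 (adjusted p = 0.068) that was called without centring (−0.69, adjusted p = 0.029) and under quantile normalization (−0.55, adjusted p = 0.045). A SERPINE2 intron region (chr2:224014178-224014946) had differences of −0.46, −0.43 and −0.48 in the 3 sorts (adjusted p of 0.14, 0.13 and 0.095), and the first was called without centring (−0.66, adjusted p = 0.049). A PLAUR intron region (chr19:43664011-43664673) was called lower in EGFR-NGFR-High with a replicate block (−0.59, adjusted p = 0.042) and without Mix 1 (−0.73, adjusted p = 0.049) or NGFR-High 3 (adjusted p = 0.046). Without NGFR-High 3 the SERPINE2 intron region was also called, in NGFR-High (−0.63, adjusted p = 0.025) and EGFR-NGFR-High (adjusted p = 0.047). At the PLAT promoter (chr8:42205638-42208107) the differences were 0.28, 0.33 and 0.20, each with an SE of 0.17, and none was called.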

How the data were processed

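The authors aligned single-cell reads to hg38 with Cell Ranger, combined libraries without depth normalization, filtered cells in Seurat and deposited raw UMI counts per gene and cell with percent mitochondrial counts, clusters and states. They aligned ATAC-seq reads to hg38 with Bowtie2 2.3.4.1, used SAMtools 1.1 and Picard to drop poor alignments and duplicates, and ran MACS2 2.1.1.20160309 on each library. The deposited peak files give a fold enrichment, used here as a ratio, and a −log10 q-value, which was not used. The fold enrichment carries no read counts, so the depth behind a peak is unknown.

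Each library, or each state within it, gave 1 summed count per gene. Treatment was tested over 8 libraries with edgeR 4.0.16 (R 4.3.3), quasi-likelihood, filterByExpr, TMM, treatment and replicate as terms, and Benjamini-Hochberg adjustment over all genes. Two-sided adjusted p under 0.05 was called. The replicate is a block because the methods split the cells of each replicate over the plates of all treatments. A further reason is that r2 minus r1 correlated between every pair of treatments (r = 0.255 to 0.366). Residual degrees of freedom were 3, and 4 for the state by treatment term, which used the library as block. In edgeR the spread of each gene is drawn toward that of all genes, so small p-values rest mostly on a shared spread. For the state by treatment term hardly any weight is left to a gene's own spread. There S100A10 under TGFB1, at 0.29 ± 0.09, had an unadjusted edgeR p of 9.1e-04, that of a normal curve. Nothing in the labels says that r1 and r2 came from separate stocks, so the p-values measure the spread between these libraries, for the most part as shared over genes. Primed cells of a library were used where there were at least 20. In untreated WM989, thinning drew 10000 UMIs a cell. PCR duplicates were removed by UMI, and a count of 0 allows 3 counts. Doublets were not called here.

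ATAC peaks were merged over libraries with bedtools 2.31.1 into 230055 regions, of which 78175 with a peak in all 12 libraries were tested with limma 3.58.1 on log2 fold enrichment centred on each library's median. A region belongs to a member within 20000 bases of its gene body. Gene positions come from GENCODE on hg38, and promoter sequences from RefSeq (GRCh38.p14), which the tables used here hold for 4 of the 6 members.

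Alternatives were DESeq2 1.42.0, RLE scaling, no filter, no block, equal cell numbers, each library left out, and for ATAC no centring, quantile normalization, other regions and a replicate block. Scripts were tested on simulated data with 200 changed genes. The members and lists were chosen with earlier results of these data known. The rule for named genes was the 6 members, ANXA2 and S100A10 of the plasmin list, the serpins with the highest and lowest ratio, and the 3 genes most like each member over clusters. The other genes of the plasmin list with a ratio above 2 or below 0.5, and PLG, were named after their values were seen. A further gene of the plasmin list is not reported here and is in no count of that list.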

Additional observations from a re-analysis of the deposited data

Results flagged for a closer look

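The effect of TGFB1 differed between primed and drug-susceptible cells, by the test of the difference itself (edgeR, log2, primed minus drug-susceptible), for 2 members and 2 of the comparison genes. PLAUR gave −0.84 ± 0.11 (adjusted p = 2.7e-13) and SERPINE2 −1.05 ± 0.09 (adjusted p = 2.0e-31), beside 9.98% of 18502 genes called. SERPINE2 rose by 0.68 in primed and 1.83 in drug-susceptible cells, while PLAUR changed by −0.27 (adjusted p = 0.19) and 0.63. Primed cells lay largely in cluster 4 under TGFB1 and in cluster 10 in Control. The test thus compares different cells, and how a given primed cell responds was not tested. The states were also called after treatment on these same counts, which the p-values do not allow for.

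ANXA2 gave −0.41 ± 0.09 (adjusted p = 7.0e-05), a call lost without Control r1 (−0.27, adjusted p = 0.11), TGFB1 r1 (0.063) or TGFB1 r2 (0.15). S100A10 gave 0.29 ± 0.09 (adjusted p = 0.013), a call lost with RLE scaling (0.12), in DESeq2 (0.45) and without Control r2 (0.18 on the log2 scale, adjusted p = 0.51), TGFB1 r1 (0.31) or TGFB1 r2 (0.31).

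The effect of PI3Ki on S100A10 differed by −0.38 ± 0.11 (adjusted p = 0.032), and by −0.24 without Control r1 (adjusted p = 0.72), a call also lost without PI3Ki r1 (0.17), PI3Ki r2 (0.12), TGFB1 r1 (0.11) or TGFB1 r2 (0.13).

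PLAT went in opposite directions between states in the 2 cell lines, with a ratio of primed to drug-susceptible CPM of 0.370 in WM989, below 1 in 8 of 8 libraries, and of 2.09 in the single WM983B library. The difference between the lines was not tested. The primed label covered 731 of 1449 WM983B cells. It set SOX10 (ratio 0.921) and EGFR (1.42) less apart than in WM989 (0.0547 and 14.3), and MLANA about as far (0.0401 and 0.0350). Whether the label marks the same state in both lines was not tested.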

How the results depend on the processing

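The TGFB1 calls of PLAT, PLAUR and SERPINE2 over all and in drug-susceptible cells, the differences between states of PLAUR and SERPINE2, and the PLAU, SERPINE2 and PLAT exon calls in ATAC kept their direction and their side of the threshold in every alternative run. Without the replicate block, the number of members called fell to 0 under TGFBRi and PI3Ki, both over all cells (from 2 and 3) and in drug-susceptible cells (from 2 and 1), and genes called over all cells fell from 466 to 40 and from 2328 to 649. The corresponding counts in drug-susceptible cells fell from 2665 to 1189 under TGFB1, 503 to 47 under TGFBRi and 2170 to 570 under PI3Ki, and in primed cells from 41 to 9 under TGFBRi and 195 to 87 under PI3Ki. DESeq2 gave 1750, 317 and 1423 genes in drug-susceptible cells, 606 (from 1454) and 17 in primed cells under TGFB1 and TGFBRi, and 767 (from 1847) and 25 (from 102) for the difference between states. It gave 1 member in place of 3 under TGFB1 in primed cells. No filter gave 748 genes under TGFBRi over all cells. Under PI3Ki it gave 3 members in drug-susceptible cells, beside 2391 of 29027 genes, and RLE scaling gave 2, beside 2168 of 17914. In primed cells under PI3Ki, no filter gave 1 member in place of 0, beside 215 of 24830 genes. For EGFR_High against Mix, no centring and quantile normalization each gave 4 member regions in place of 2, beside 6265 and 4627 of all 78175 regions. The added member regions, at PLAT and SERPINE2, were lower in EGFR_High. The ATAC replicate numbers were not treated as pairs, since not every correlation of same-numbered libraries exceeded 0.1 (−8.7e-06 to 0.174), and a replicate block gave 5731, 10900 and 11248 regions in place of 4558, 9509 and 9913.

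Leaving out 1 library at a time gave 1 to 3 members under TGFBRi and 1 to 3 under PI3Ki over all cells, 1 to 3 and 0 to 3 in drug-susceptible cells, and in primed cells 0 to 3 under TGFB1 and 0 to 1 under PI3Ki. For ATAC it gave 1 to 3 regions for EGFR_High, 5 to 7 for NGFR-High and 4 to 8 for EGFR-NGFR-High. Over all genes tested, the calls under TGFB1, TGFBRi and PI3Ki ran from 3164 to 6377, 168 to 1146 and 719 to 3298 over all cells, from 988 to 3722, 206 to 1247 and 632 to 3286 in drug-susceptible cells, from 584 to 1726, 17 to 63 and 96 to 239 in primed cells, and from 825 to 2126, 49 to 111 and 129 to 257 for the difference between states. The lowest were without the treatment's own r1 or r2, Control r1 or r2 or, for the TGFBRi difference, either TGFB1 library. The regions called ran from 1711 to 4619, 4500 to 9603 and 5593 to 10083 in the ATAC comparisons, the lowest without replicate 1 of the sort compared. Over r1 or r2 alone the WM989 ratio was 0.337 to 0.415 for PLAT, 0.416 to 1.91 for PLAU, 10.5 to 16.3 for PLAUR, 1.91 to 2.38 for SERPINE2, 76.4 to 159 for SERPINB2 and 0.448 to 0.577 for SERPINF1. The equal-weight mean over libraries gave 0.325 for PLAT, 1.0 for PLAU, 11.5 for PLAUR, 1.82 for SERPINE2, 77.9 for SERPINB2 and 0.720 for SERPINF1. The cause of these shifts was not tested. Counting error was largest where counts were fewest, for PLAU (14 to 30 a library) and for SERPINB2 in primed cells (0 to 24 a library) of the treatment experiment.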
